A study of Mus musculus with 55 samples.

Results

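The tumours described here are the 9 labelled baseline, 4 grown in C57BL/6 mice (B6) and 5 grown in NSG mice. They were taken by label from a series of 55 samples, 31 of them RNA libraries, of which 30 have a column in the deposited tables. Every tumour came from BBN963, a mouse bladder cancer cell line, which was placed under the skin of the C57BL/6 mice at 3.0 M cells, with treatment groups drawn at 200 mm3, and the 9 tumours are labelled as taken at baseline, without entinostat, the histone deacetylase inhibitor the study tests. The B6 host is an inbred mouse with a complete immune system. The NSG host is a NOD mouse with the Prkdc scid mutation and a null Il2rg allele, and it keeps macrophages, neutrophils and dendritic cells, which in this strain are known to be functionally impaired. The contrast asks which transcripts of a tumour differ with the host before treatment. It rests on 1 tumour line, and host age, host sex, the tumour size at baseline collection and the site and cell number of injection and the volume at grouping in NSG mice are not given in the sources used here.

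Prkdc encodes the DNA-dependent protein kinase needed to join the gene segments of antigen receptors, so scid mice form almost no T or B cells. Il2rg encodes the common gamma chain shared by several interleukin receptors, and without it NK cells do not develop. T and NK cells are the main source of interferon gamma in a tumour, and interferon gamma acts on genes for chemokines, immune GTPases and antigen presentation.

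Values are normalised read counts, the deposited values of both host tables, rescaled together so that the 9 libraries share a common scale. Levels are not per gene length and were compared only within a gene. Differences are log2, B6 over NSG, on rescaled values plus a pseudocount of 1. A gene was called when its Benjamini-Hochberg adjusted p from limma was under 0.05. Values are listed in the order B6 tumours 415, 416, 419 and 426, then tumours NSG_Baseline_303, NSG_Baseline_304, NSG_Baseline_305, NSG_Baseline_316 and NSG_Baseline_320, the numbers being mouse numbers. The deposited tables hold 1 host each, so host and table cannot be told apart in any value below. Each library is a bulk tumour, so fewer cells of a type and less RNA per cell cannot be told apart either.

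The 9 libraries were of like depth, about 25.1 to 33.1 M reads in B6 and 25.7 to 38.0 M in NSG by the size of 1 read in the low values. A value above 0 was found for 19530 to 21293 genes in the B6 libraries and for 22952 to 23863 in the NSG libraries. Of 16977 genes tested, 8395 were called (49.4%), 3972 higher in B6 (23.4%) and 4423 lower (26.1%), with a median difference of -0.07. With the values as deposited the split was 873 higher and 9755 lower, with total-sum scaling 1806 and 7120 and with upper-quartile scaling 1964 and 6757, and these moved the median of all genes by -0.65, -0.37 and -0.33. Against this background a list with about 1 gene in 4 called in a direction is not set apart. The hosts lay apart on the first principal component (60.1% of the variance), from -125.8 to -57.8 in B6 and from 53.9 to 98.4 in NSG. The second held 12.8% and spread the B6 tumours, with B6 tumour 426 at -81.7 and B6 tumour 415 at 65.9. The median within-group SD of a gene was 0.38 in B6 and 0.25 in NSG (log2). Of all genes tested, 3115 were higher in every B6 tumour than in any NSG tumour and 3474 the reverse.

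**Figure D1:**
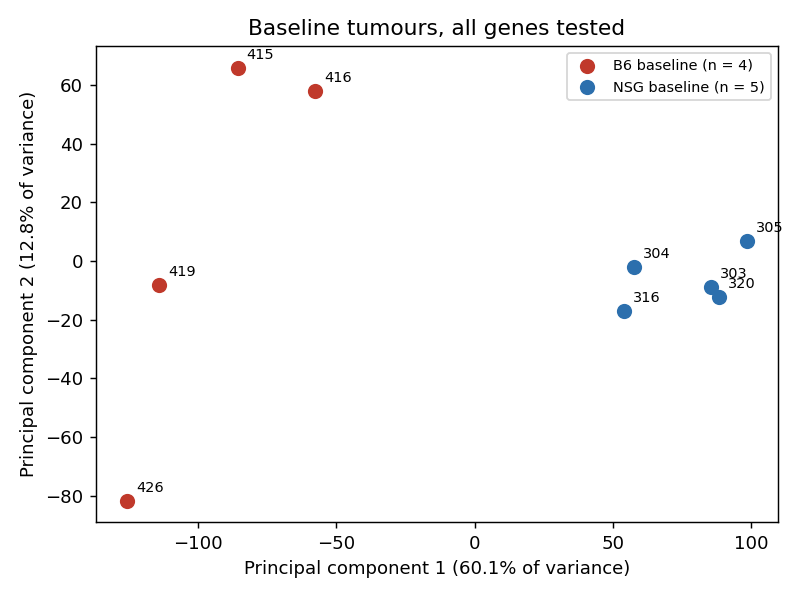
First and second principal components of the log2 rescaled values of the 9 baseline libraries, 1 point a tumour, coloured by host. The B6 tumours lie at -125.8 to -57.8 and the NSG tumours at 53.9 to 98.4 on the first component, and the B6 tumours spread along the second.

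The genes mutated in the NSG host check the labels in part. Il2rg (chromosome X, 101264385 to 101268255 in mm10) was at 919.8, 783, 909 and 416 in the B6 tumours and at 59.6, 101, 41.9, 45.7 and 56.8 in the NSG tumours. Every B6 tumour was above every NSG tumour, and B6 tumour 426 was the lowest of its group (3.62 ± 0.32 SE, adjusted p = 6.4e-05). Prkdc (chromosome 16, 15637444 to 15842239) was at 635, 524, 537 and 600.2 in B6 and at 1093, 711, 849, 736 and 833 in NSG. It was higher in all 5 NSG tumours than in any B6 tumour (-0.54 ± 0.14 SE, adjusted p = 0.012). The host mutations are not carried by the injected line, whose cells can transcribe both genes in either host, and scid is a point mutation, so Prkdc reads do not check a label. How much of each value came from host cells was not tested. Of the V(D)J recombination and end joining list, 3 of 8 tested genes were higher in B6 (Xrcc5, Xrcc6 and Nhej1) and 3 lower (Prkdc, Lig4 and Dclre1c, the nuclease Artemis). With the values as deposited and with total-sum and upper-quartile scaling no member was called higher, and Xrcc5 was at -0.16 as deposited. The recombinase genes Rag1 and Rag2 did not pass the filter on low values. Of the common gamma chain list, 8 of 16 were higher in B6 and 2 lower, against 4 higher and 6 lower as deposited and 5 higher and 5 lower with total-sum scaling. Without NSG_Baseline_303 or NSG_Baseline_305, 5 were higher, and 5 of the 8 kept the call in all 9 fits without a tumour. Its receptor chains Il2rb (6.23) and Il2ra (2.32) and the feedback inhibitor Socs1 (2.34) were higher in B6, and Jak3 (-1.0), the kinase bound to the chain, was lower.

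CD3 chains and alpha, beta and gamma chain transcripts were found in every B6 tumour and were far lower or listed at 0 in the NSG tumours. Of 27 T cell genes, all of them tested, 21 were higher in B6, 1 (Lef1) was lower and 5 were not called, with a median difference of 3.89, against 23.4% and 26.1% of all genes called higher and lower. All 21 genes called higher kept that call in each of the 9 fits that left out 1 tumour, while Lef1 lost it in 8 of them, all but that without B6 tumour 416. Cd3e, part of the CD3 signalling module, was at 128, 138, 135 and 139.8 in B6 and 0.68, 0.707, 0, 0.845 and 5.54 in NSG. The B6 tumours lay close together, far above all NSG tumours, of which NSG_Baseline_320 was the highest (6.07 ± 0.50 SE, adjusted p = 5e-05). Cd3g, another chain, was at 399, 303.3, 296 and 318 in B6 and was listed at 0 in all 5 NSG tumours. The receptor constant gene Trbc2 was at 339.9, 345, 325 and 340.5 in B6 against 18.3, 2.79, 8.04, 27.9 and 9.77 in NSG. The groups did not overlap (4.87 ± 0.52 SE, adjusted p = 0.00015).

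Among coreceptors, the CD8 chains were higher in B6 and Cd4 was not called. Cd8a was at 545, 439, 624 and 524 in B6 and 6.79, 7.92, 7.65, 16.8 and 7.5 in NSG. No NSG tumour came near the B6 range (5.75 ± 0.29 SE, adjusted p = 4.2e-06). Cd4 was at 130.3, 119.7, 132 and 42.3 in B6 and 129, 59.1, 107, 70.9 and 80.1 in NSG. Its groups overlapped, with B6 tumour 426 the lowest of all 9 (0.17 ± 0.39 SE, adjusted p = 0.73). The other genes not called were Cd247, Trdc, Tcf7 and Thy1, which fibroblasts and other cells can express. Summed over the list, values ran from 5338 to 9889 in the B6 tumours and 3313 to 4309 in the NSG tumours. Thy1 and Bcl11b alone stood at 2064 to 2874 and 465 to 605 in NSG. Variable segments of the beta chain summed to 70.0 to 79.2 in B6 and 0.69 to 2.75 in NSG, and those of the gamma chain to 10.6 to 19.2 against 0 in all NSG tumours. Variable segments of the delta chain went the other way, 0 to 5.97 in B6 and 12.7 to 29.8 in NSG.

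Cytotoxic genes showed some of the widest host differences. Of 16 cytotoxic effector genes, 12 were higher in B6 and 3 lower, with a median of 4.75, and all 12 of the former kept the call without any single tumour. Gzma, a granzyme of T and NK cells, was at 1501, 1743, 2083 and 2211 in B6 and 2.71, 1.4, 0, 0 and 0.612 in NSG. All B6 tumours were far above every NSG tumour (10.10 ± 0.42 SE, adjusted p = 1.6e-06). Gzmb was at 624, 555, 882 and 846 in B6 against 2.04, 0, 0.897, 5.07 and 0.615 in NSG. The groups were again far apart (8.32 ± 0.49 SE, adjusted p = 8.2e-06). Nkg7, a granule protein of killer cells, differed by 7.68 ± 0.35 SE, adjusted p = 2.1e-06, and perforin (Prf1) by 6.24 ± 0.49 SE, adjusted p = 3.9e-05. Ifng, the cytokine itself, was at 120.0, 39.2, 149 and 23.7 in B6 and was listed at 0 in all 5 NSG tumours. It was highest in B6 tumours 419 and 415 and lowest in 426.

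The granzyme family was split. Gzmd and Gzme, close copies in a granzyme cluster whose reads the counting could share, were lower in B6. Gzme was at 86.4, 227, 46.9 and 21.4 in B6 and 630.2, 447, 527, 613 and 675 in NSG. Each NSG tumour was above each B6 tumour (-3.08 ± 0.55 SE, adjusted p = 0.0018). Gzmd overlapped between groups (-2.06, adjusted p = 0.026) and lost its call without tumour NSG_Baseline_303. Eomes, a T-box factor of killer cells, was also lower in B6 (-1.58, adjusted p = 0.0066), while Tbx21, another T-box factor, was higher (4.78, adjusted p = 6.5e-05). Gzmf and Gzmk were listed at 0 in all NSG tumours, at 11.1 to 122 and 17.1 to 31.7 in B6.

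Most NK receptor genes that could be tested were higher in B6. Of 14 listed genes 9 passed the filter, 6 of them higher in B6 and 2 lower (Cd244a and Klra8, the latter losing its call in 7 of 9 fits without a tumour), with a median of 4.11. Klrd1, the CD94 chain, was at 167, 178, 214 and 171 in B6 and 1.94, 9.08, 2.72, 2.57 and 5.27 in NSG. The hosts did not overlap (5.26 ± 0.39 SE, adjusted p = 3.1e-05). Klrk1, the NKG2D receptor that CD8 T cells also carry, differed by 3.23 ± 0.29 SE, adjusted p = 6.4e-05. Ncr1, the receptor that marks NK cells, stayed under the filter at 2.33, 8.52, 3.52 and 3.55 in B6 and was listed at 0 in all NSG tumours. Most of the called genes of this list are also expressed by activated CD8 T cells.

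B lineage transcripts were uneven among the B6 tumours. Igkc, the kappa light chain, was at 6688, 1318, 419 and 31.3 in B6 and 2.02, 0, 0, 3.36 and 0 in NSG. B6 tumour 415 was the highest and B6 tumour 426 the lowest of its group, still above every NSG tumour (8.46 ± 1.31 SE, adjusted p = 0.00091). Ighm was at 9359, 737, 186 and 125 in B6 against 59.5, 180.5, 84.2, 126 and 80.1 in NSG. The groups overlapped and the gene was not called (2.68 ± 1.09 SE, adjusted p = 0.065). Only 9 of 25 genes of the list passed the filter, 2 higher in B6 (Igkc and Igha) and 3 lower (Pax5, Fcrla and Tnfrsf13b), none of the latter kept in all 9 fits without a tumour. Without B6 tumour 426, 13 genes passed the filter, 8 of them called higher and 1 lower. Without 415, 416 or 419, 3 to 4 were called higher, and the lower count was 0 without tumour NSG_Baseline_305 or NSG_Baseline_320 and 1 without NSG_Baseline_316. Heavy-chain variable segments summed to 1271, 246.6, 33.8 and 4.41 in B6 and 4.48 to 11.2 in NSG, so B6 tumour 426 did not stand above the NSG tumours.

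Regulatory T cell genes were mostly higher in B6. Of 10 regulatory T cell genes, 8 were higher and 2 lower in B6, and all 8 of the former kept the call without any single tumour. Foxp3, the defining factor of regulatory T cells, was at 189, 182, 205 and 188 in B6 and 57.2, 76.7, 47.7, 67.5 and 58.0 in NSG. Levels in NSG were lower but well above 0 (1.64 ± 0.20 SE, adjusted p = 0.0003). Ctla4, an inhibitory receptor, was at 129, 95.4, 64.5 and 98.2 in B6 against 0.515, 0.537, 0, 0 and 0 in NSG. No NSG tumour reached 1 (6.33 ± 0.35 SE, adjusted p = 6e-06). The genes lower in B6, Ikzf2 and Lrrc32, each lost the call when a single tumour was left out, Ikzf2 without 415, 416, 419, NSG_Baseline_303 or NSG_Baseline_320 and Lrrc32 without 419.

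Of 13 checkpoint genes, 8 were higher and 3 lower in B6 (Havcr2, Cd244a and Vsir), and 6 and 5 as deposited. Lag3, an inhibitory receptor of activated T cells, was at 395, 365, 561 and 329 in B6 and 40.7, 49.2, 38.1, 56.2 and 37.3 in NSG. All B6 tumours were above all NSG tumours (3.18 ± 0.23 SE, adjusted p = 2.7e-05). Pdcd1, which encodes PD-1, differed by 4.51 ± 0.68 SE, adjusted p = 0.00078. Its ligand Cd274 was at 939, 1267, 2189 and 973 in B6 and 782, 882, 653, 621 and 742 in NSG. The groups did not overlap, but the lowest B6 and the highest NSG tumour lay close (0.79 ± 0.24 SE, adjusted p = 0.022), and the call was lost without tumour NSG_Baseline_305. Havcr2, which encodes TIM-3 and is expressed by myeloid cells too, was lower in B6, at 242, 318, 408 and 231 in B6 against 705, 674, 785, 604 and 663 in NSG. Each NSG tumour exceeded each B6 tumour (-1.23 ± 0.18 SE, adjusted p = 0.0007).

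**Figure D2:**
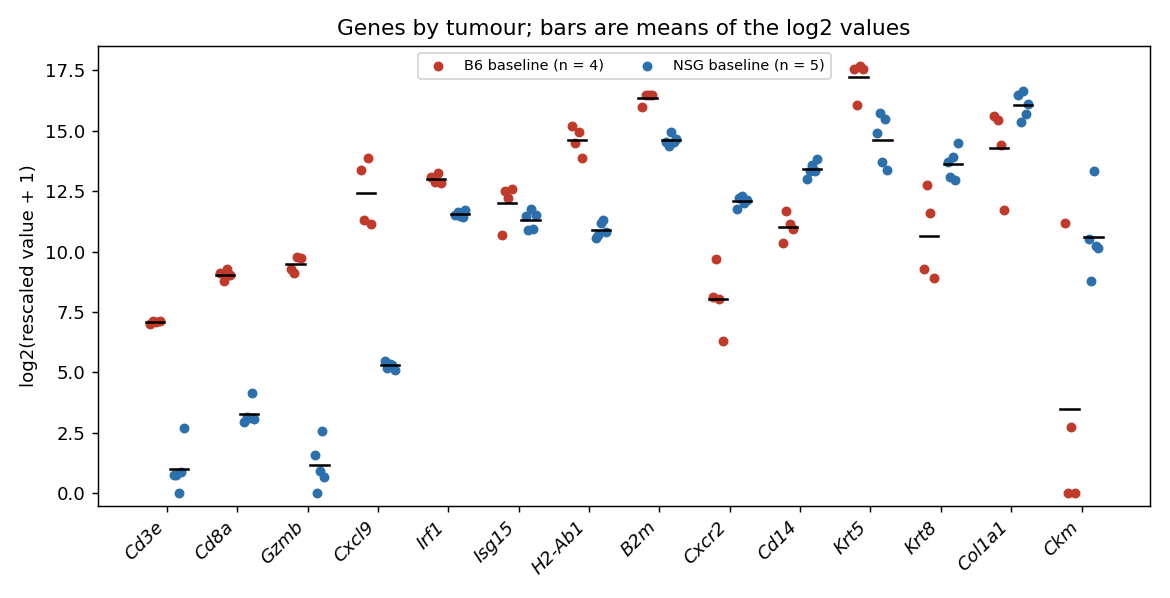
Rescaled normalised read counts on a log2 axis for 14 genes, 1 point a tumour and bars at the group means of the log2 values, B6 and NSG side by side. Cd3e, Cd8a, Gzmb, Cxcl9, Irf1, H2-Ab1, B2m and Krt5 were higher in every B6 tumour than in any NSG tumour, Cxcr2, Cd14 and Krt8 were the reverse, and Isg15, Col1a1 and Ckm overlapped.

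Targets of interferon gamma were higher in B6 through nearly the whole list. Of 26 interferon gamma response genes, 23 were called higher in B6 and none lower, with a median of 2.55. The members not called were Irf8, Gbp9 and Nos2, and 22 of the 23 kept the call without any single tumour, the exception being Gbp7, which lost it without 416, 419, NSG_Baseline_304, NSG_Baseline_316 or NSG_Baseline_320. To show the sequences these genes share, promoters are printed for 3 interferon gamma targets (Cxcl9, Irf1, Igtp), for B2m of the class I pathway and for Isg15, a type I interferon target that was not called. Each holds the 180 bases before the start site (RefSeq, GRCm38.p6), 5′ to 3′ on the gene's strand. Capitals mark matches, on either strand, to the interferon-stimulated response element core GAAANNGAA or the gamma-activated site TTCNNNGAA.

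Cxcl9, chr5:92328080-92328259, minus strand: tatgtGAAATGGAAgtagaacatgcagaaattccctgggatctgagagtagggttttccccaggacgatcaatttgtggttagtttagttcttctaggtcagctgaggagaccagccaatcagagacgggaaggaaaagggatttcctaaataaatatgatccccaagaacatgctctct

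Irf1, chr11:53769834-53770013, plus strand: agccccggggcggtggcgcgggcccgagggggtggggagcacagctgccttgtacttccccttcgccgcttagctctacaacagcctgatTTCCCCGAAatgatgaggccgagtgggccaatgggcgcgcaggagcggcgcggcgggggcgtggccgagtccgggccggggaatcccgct

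Igtp, chr11:58199376-58199555, plus strand: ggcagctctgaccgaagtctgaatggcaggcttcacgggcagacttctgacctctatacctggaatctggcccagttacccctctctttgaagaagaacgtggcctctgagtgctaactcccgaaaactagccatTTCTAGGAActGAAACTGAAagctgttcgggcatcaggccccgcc

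B2m, chr2:122147507-122147686, plus strand: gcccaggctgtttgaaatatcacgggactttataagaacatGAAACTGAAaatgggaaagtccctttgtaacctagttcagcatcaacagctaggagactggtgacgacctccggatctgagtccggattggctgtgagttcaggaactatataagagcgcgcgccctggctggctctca

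Isg15, chr4:156200819-156200998, minus strand: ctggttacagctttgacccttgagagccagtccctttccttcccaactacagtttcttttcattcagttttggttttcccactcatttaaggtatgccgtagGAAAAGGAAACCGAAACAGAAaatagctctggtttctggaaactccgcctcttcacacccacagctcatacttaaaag

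The match began 175 bases before the start in Cxcl9 (response element core), 90 in Irf1 (gamma-activated site) and 139 in B2m (response element core). Igtp held a gamma-activated site at 45 and a response element core at 34 bases, and Isg15 held 3 overlapping response element cores at 78, 72 and 66. Counted from 250 bases before to 50 after the start, 12 of the 15 interferon gamma list promoters found in the RefSeq table held a response element core (80%) and 8 held a gamma-activated site (53.3%). In the type I interferon list it was 13 of 21 (61.9%) and 5 of 21 (23.8%), and in the class I list 5 and 2 of 21. Of all 11843 tested genes with a promoter (69.8% of 16973 symbols), 7.39% held the first motif and 6.98% the second. Among genes called higher in B6 the shares were 8.34% and 7.28%, and among those called lower 6.58% and 7.36%. The shares in both interferon lists were several times those of all tested genes, and the shares among called genes were close to them. A match is a run of letters and was not read as a bound site.

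Cxcl9, a chemokine that draws T cells bearing CXCR3, was at 10729, 2492, 15035 and 2222 in B6 and 43.2, 35.8, 40.0, 38.4 and 33.8 in NSG. B6 tumours 415 and 419 were several times above 416 and 426, and all 4 were far above the narrow NSG range (7.13 ± 0.54 SE, adjusted p = 3.9e-05). Ido1, an enzyme of tryptophan breakdown induced by interferon gamma, was at 1684, 973, 3258 and 1124 in B6 against 11.8, 22.2, 10.1, 12.9 and 9.74 in NSG. The hosts did not overlap (6.83 ± 0.38 SE, adjusted p = 6e-06). Irf1, a transcription factor of the pathway, was at 8588, 7448, 9791 and 7346 in B6 and 2957, 3175, 2818, 2719 and 3346 in NSG. Each B6 tumour was above each NSG tumour (1.46 ± 0.12 SE, adjusted p = 4.6e-05). The immune GTPases were higher too. Igtp, whose promoter is printed above, was at 12236, 9692, 17764 and 13615 in B6 and 1224, 784, 1518, 846 and 1310 in NSG. Each B6 tumour was above each NSG tumour (3.56 ± 0.23 SE, adjusted p = 1.6e-05). Gbp2 differed by 3.08 and Iigp1 by 3.83, and Tgtp1 (3.02) and Tgtp2 (4.15) are near-identical copies whose counts are uncertain.

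Few type I interferon targets were called. Of 29 genes, 5 were higher in B6 (Ifit2, Oas1a, Rtp4, Irf9 and Zbp1) and none lower, against 23.4% of all genes called higher, with a median of 0.33. Isg15 was at 1660, 5872, 4744 and 6200 in B6 and 2866, 1898, 3442, 1950 and 2918 in NSG. B6 tumour 415 was the lowest of all 9 while the other B6 tumours were the highest (0.69 ± 0.38 SE, adjusted p = 0.15). Zbp1, a nucleic acid sensor, was at 2154, 3482, 3828 and 4227 in B6 against 1554, 1029, 1775, 1256 and 1504 in NSG. Its groups did not overlap (1.25 ± 0.22 SE, adjusted p = 0.0016). Without B6 tumour 415, 11 genes were called higher and the median was 0.68, and without any other single tumour 4 to 5 were. Ifit2 lost its call in 8 of these 9 fits, and with the values as deposited 1 member was called higher, 6 were called lower and Irf9 was at -0.11. Of the list of interferons, receptors and kinases, Ifng was higher and 4 of 9 were lower in B6, Ifnar1 (-1.0), Jak2 (-0.98), Ifnlr1 (-1.09) and Ifngr1 (-0.58), the last losing its call without 415, 419 or NSG_Baseline_320, while 8 were lower as deposited. Ifnb1 did not pass the filter.

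MHC class I presentation genes were higher in B6. Of 25 genes, 20 were higher in B6 and none lower, with a median of 1.60, and all 20 kept the call without any single tumour. As deposited 15 were higher and 3 lower. B2m, the light chain, was at 63906, 90932, 91889 and 89948 in B6 and 23818, 21192, 31333, 23753 and 25794 in NSG. B6 tumour 415 was below the other B6 tumours and above every NSG tumour (1.74 ± 0.16 SE, adjusted p = 8.6e-05). The heavy chains H2-K1 and H2-D1 differed by 1.95 and 1.60, the immunoproteasome subunit Psmb9 by 2.58 ± 0.13 SE, adjusted p = 4.1e-06 and the peptide transporter Tap1 by 2.53 ± 0.17 SE, adjusted p = 2.1e-05. Nlrc5, the transactivator of class I genes, was at 2822, 2841, 3279 and 3560 in B6 against 1118, 745, 1250, 775 and 873 in NSG. All B6 tumours were above all NSG tumours (1.74 ± 0.17 SE, adjusted p = 0.00011). The chaperones Calr (-0.26, adjusted p = 0.14) and Pdia3 (0.41, adjusted p = 0.057) and the nonclassical H2-Q10 and H2-T24 were among the 5 not called. H2-Q6 and H2-Q7 are near-identical copies and their counts are uncertain.

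Class II presentation genes were higher in B6 as well. Of 12 tested genes, 10 were higher and none lower, with a median of 2.44, each call kept without any single tumour. Without both B6 tumour 415 and tumour NSG_Baseline_305, 7 were higher. H2-Ab1, a class II chain, was at 37240, 22909, 31747 and 14861 in B6 and 1490, 1660, 2309, 2559 and 1784 in NSG. B6 tumour 426 was the lowest of its group, well above the highest NSG tumour (3.71 ± 0.27 SE, adjusted p = 2.8e-05). H2-DMb1, which loads peptide, was at 4713, 3244, 3898 and 1942 in B6 against 139, 162, 150.5, 186 and 149.9 in NSG. The hosts did not overlap (4.38 ± 0.23 SE, adjusted p = 4.8e-06). The invariant chain Cd74 differed by 3.48 ± 0.31 SE, adjusted p = 6.8e-05 and the thiol reductase Ifi30 by 1.15 ± 0.17 SE, adjusted p = 0.00073. Ciita, the master transactivator of class II genes, was at 1004, 582, 1057 and 136 in B6 and 131, 140.1, 178, 135 and 141 in NSG. B6 tumour 426 lay within the NSG range and the other B6 tumours were all far above it (1.90 ± 0.53 SE, adjusted p = 0.015). NOD mice carry the H2g7 haplotype and B6 mice H2b, and the genome named in the submitters' notes, mm10, is that of C57BL/6. The part of allele differences in the H2 genes was not tested.

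**Figure D3:**
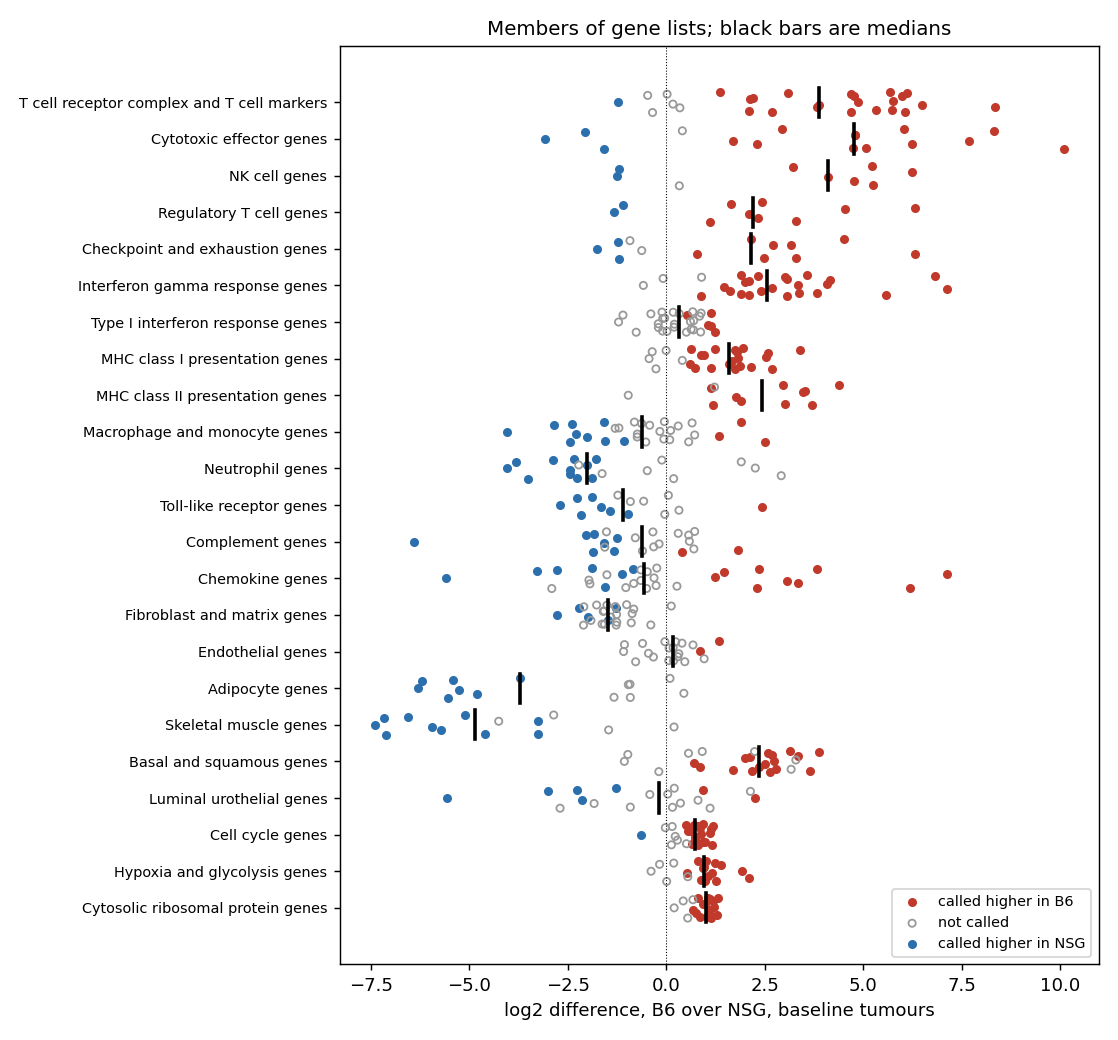
Log2 difference, B6 over NSG, of every tested gene in 23 lists, 1 point a gene. Red points were called higher in B6, blue points higher in NSG, open grey points were not called, and the black bar is the list's median. T cell, cytotoxic, interferon gamma and MHC lists lie to the B6 side, and neutrophil, adipocyte and skeletal muscle lists to the NSG side.

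Neutrophil genes were higher in the NSG tumours. Of 19 tested genes, none was higher in B6 and 11 were lower, with a median of -2.01, and all 11 kept the call without any single tumour. Cxcr2, the chemokine receptor that brings neutrophils into tissue, was at 278, 829.8, 265 and 77.9 in B6 and 3429, 4804, 5071, 4093 and 4443 in NSG. The NSG tumours were alike, and B6 tumour 416 was the highest of the B6 group (-4.03 ± 0.53 SE, adjusted p = 0.00043). Csf3r, the G-CSF receptor, was at 588, 1451, 747 and 167 in B6 against 5980, 9513, 7868, 7499 and 9820 in NSG. All NSG tumours were above all B6 tumours (-3.81 ± 0.51 SE, adjusted p = 0.00045). Trem1 (-3.50), S100a8 (-2.25) and Il1b (-2.43) were lower in B6 as well. The granule genes Camp, Ngp, Elane and Mpo were under the filter. Ltf, a granule gene that epithelia also express, was at 6789, 20982, 14617 and 118461 in B6 and 33187, 13490, 52321, 26250 and 47007 in NSG. It overlapped and was highest in B6 tumour 426 (-0.48 ± 0.74 SE, adjusted p = 0.61), so the list's sum does not follow its other members.

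Chemokine genes were called in both directions. Of 30 tested, 9 were higher and 7 lower in B6, against 7 higher and 13 lower as deposited. Of all genes tested 23.4% were called higher and 26.1% lower, so neither count is set apart. The ligands of CXCR3, Cxcl9, Cxcl10 (3.35) and Cxcl11 (3.07), were higher in B6. Of the CXCR2 ligands Cxcl1, Cxcl2, Cxcl3 and Cxcl5, 3 were lower. Cxcl5 was at 1644, 7205, 3159 and 2602 in B6 and 18969, 16617, 21525, 19534 and 35168 in NSG. Even the lowest NSG tumour was well above the highest B6 tumour (-2.78 ± 0.39 SE, adjusted p = 0.00055). Cxcl2 (-1.87, adjusted p = 0.0029) and Cxcl3 (-1.55, adjusted p = 0.0021) were lower in B6 too, and Cxcl1 was not called (-1.93, adjusted p = 0.1). Among CC chemokines, Ccl2, Ccl5, Ccl7 and Ccl8 were higher in B6, as were Ccl24 and Ccl11, which attract eosinophils. Ccl12 was lower and lost its call in 7 of 9 fits without a tumour. Ccl24 was at 1008, 829.5, 74.5 and 183 in B6 against 1.02, 6.27, 1.34, 7.65 and 5.50 in NSG. B6 tumours 415 and 416 were the highest (6.18 ± 0.82 SE, adjusted p = 0.00041). The eosinophil lectin Siglecf went the other way, at 30.3, 59.4, 16.7 and 6.10 in B6 and 566, 463, 672, 659 and 755 in NSG. Each NSG tumour was far above each B6 tumour (-4.80 ± 0.52 SE, adjusted p = 0.00017), and the eosinophil granule genes Epx and Prg2 were under the filter. Of 20 inflammatory cytokine genes, Il24 was higher in B6 (2.59) and 7 were lower, among them Tnf (-0.96) and Csf1 (-1.21), where 26.1% of all genes tested were lower. Of these 7 genes, 4 kept the call in all 9 fits without a tumour, and Il6 and Il1a each lost it in 6. As deposited 11 were lower and with total-sum scaling 9.

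Macrophage markers were called in both directions, more often lower in B6. Of 29 genes, 3 were higher and 9 lower in B6, with a median of -0.62. The share lower is near the 26.1% of all genes tested. As deposited 1 was higher and 18 lower with a median of -1.26, and with total-sum scaling 1 was higher and 11 lower. Without B6 tumour 426, where many markers were low, 7 were higher and 9 lower and the median was -0.15. Cd14, the lipopolysaccharide coreceptor, was at 1303, 3318, 2223 and 1974 in B6 and 8246, 10421, 12133, 10224 and 14483 in NSG. No B6 tumour reached the NSG range (-2.39 ± 0.26 SE, adjusted p = 0.00016). Vsig4, a complement receptor of resident macrophages, was at 2.32, 9.36, 0 and 1.18 in B6 against 25.8, 36.7, 63.7, 84.4 and 47.3 in NSG. Its levels were near 0 in B6 (-4.04 ± 0.64 SE, adjusted p = 0.00098). Of broad markers, Mertk (-1.58, adjusted p = 0.013) and Itgam (-2.28, adjusted p = 0.0038) were lower in B6, and Adgre1 and Cd68 were not called. Adgre1 (F4/80) was at 616, 986, 628 and 111 in B6 and 1166, 951, 1341, 1137 and 1011 in NSG (-1.29 ± 0.53 SE, adjusted p = 0.067) and Cd68 at 1315, 1641, 1976 and 1410 in B6 and 1148, 1667, 1399, 1580 and 1614 in NSG (0.09 ± 0.16 SE, adjusted p = 0.64). Both overlapped between hosts, and B6 tumour 426 was the lowest for Adgre1. Gpnmb (2.52), Arg1 (1.90) and Aif1 (1.35) were the members higher in B6. Arg1 lost its call without 6 of the 9 tumours.

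Toll-like receptors were lower in B6 in 7 of 14 tested members and higher in 1, with a median of -1.10. Tlr13, a sensor of bacterial RNA, was at 205, 404, 307 and 82.6 in B6 and 1542, 1227, 2053, 1179 and 1098 in NSG. The groups did not overlap (-2.68 ± 0.41 SE, adjusted p = 0.00088). Tlr12, a sensor of parasite profilin, was the member higher in B6 (2.43 ± 0.39 SE, adjusted p = 0.0011). The adaptor Myd88 was not called (0.06, adjusted p = 0.65). Of 18 dendritic cell genes, 2 were higher and 3 lower in B6, and 0 and 8 as deposited. Of 21 complement genes 2 were higher and 7 lower, against 23.4% and 26.1% of all genes tested, and 6 and 5 without B6 tumour 426. Cfd, which fat cells make in quantity, differed most (-6.39) and lost its call without B6 tumour 419.

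**Figure D4:**
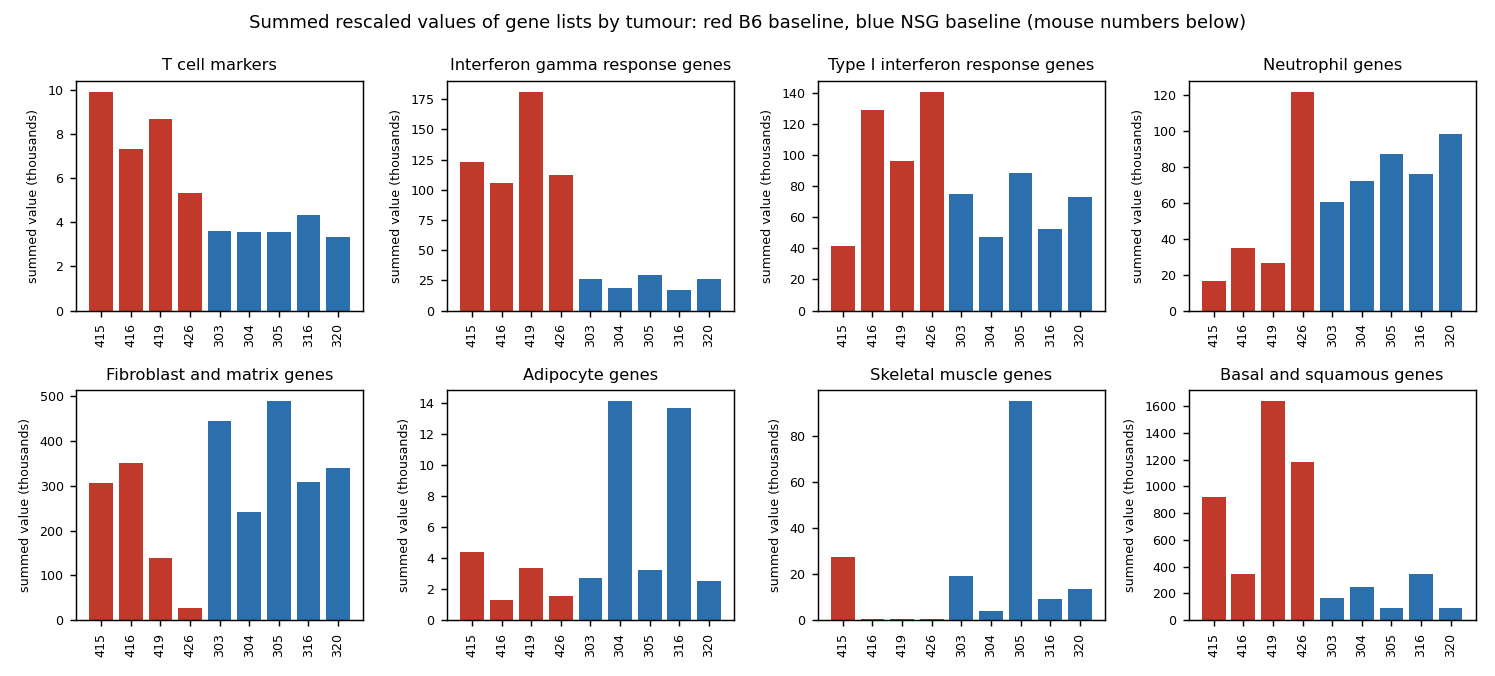
Summed rescaled values, on axes divided by 1000, of 8 lists in each of the 9 tumours, B6 and NSG bars in separate colours with axes starting at 0. The interferon gamma response sum is higher in every B6 tumour than in any NSG tumour, the basal sum of B6 tumour 416 is level with that of NSG_Baseline_316 and those of the other B6 tumours are higher, the muscle sum is highest in tumour NSG_Baseline_305 and B6 tumour 415, and the fibroblast sum is lowest in B6 tumour 426.

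Stromal and neighbouring-tissue transcripts varied between tumours as well as hosts. Skeletal muscle genes summed to 27515, 370.4, 513 and 561 in B6 and 19054, 3892, 94862, 9101 and 13335 in NSG. B6 tumour 415 was the only B6 tumour in the NSG range, and tumour NSG_Baseline_305 was the highest of all. Of 14 tested genes, 10 were lower in B6 and none higher, with a median of -4.85, but no member kept its call without each single tumour. Left out one at a time, B6 tumour 426 brought the count to 1, 416, 419 or tumour NSG_Baseline_305 to 2, NSG_Baseline_303 to 3, NSG_Baseline_320 to 4, NSG_Baseline_316 to 6 and 415 to 13. Ckm, muscle creatine kinase, was at 2352, 0, 5.77 and 0 in B6 and 1480, 434, 10388, 1184 and 1138 in NSG. B6 tumours 416 and 426 were at 0 and 415 was above most NSG tumours (-7.11 ± 2.11 SE, adjusted p = 0.02). Adipocyte genes were lower in B6 in 7 of 13, with a median of -3.70. Adipoq, the fat cell hormone, was at 142, 1.55, 0 and 3.24 in B6 against 86.6, 1250, 143, 1225 and 103 in NSG. It was highest in tumours NSG_Baseline_304 and NSG_Baseline_316, lower in the other NSG tumours and in B6 tumour 415, and near 0 in the rest (-5.53 ± 1.45 SE, adjusted p = 0.011).

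Fibroblast and matrix genes were lower in B6 in 5 of 25 and higher in none, with a median of -1.47, where 26.1% of all genes tested were lower. As deposited 18 were lower and with total-sum scaling 9. The list summed to 307035, 352284, 137744 and 26238 in B6 and 445473, 241704, 489088, 307595 and 339200 in NSG. B6 tumour 426 was far below all others. Without it the count was 4 and the median -0.54. Without B6 tumour 415, 416 or 419 the count was 9, 13 or 2, and without tumour NSG_Baseline_303, NSG_Baseline_305 or NSG_Baseline_316 it was 3. Fn1, fibronectin, was at 10161, 15782, 8798 and 1490 in B6 and 59027, 36040, 52266, 33364 and 58794 in NSG. It was lower in every B6 tumour (-2.78 ± 0.59 SE, adjusted p = 0.0042). Col1a1, the main fibrillar collagen chain, was at 49666, 44235, 21648 and 3349 in B6 and 89926, 41695, 102215, 53205 and 70448 in NSG. The groups overlapped and it was not called (-1.76 ± 0.71 SE, adjusted p = 0.064). Of 20 endothelial genes, Vwf (1.34, adjusted p = 0.0051) and Esam (0.86, adjusted p = 0.029) were higher in B6 and none was lower. Pecam1, which marks vessels, was not called (0.32, adjusted p = 0.46). As deposited none was higher and 3 were lower. Without B6 tumour 426, 10 endothelial genes were called higher, and without 416, NSG_Baseline_303, NSG_Baseline_305 or NSG_Baseline_320 only 1 was. The red cell genes Hba-a1 (-1.64) and Hba-a2 (1.86) are near-identical copies called in opposite directions, so their counts are uncertain, and each lost its call in several fits without a tumour, Hba-a1 in 6 and Hba-a2 in 5 of 9.

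Genes of the basal and squamous programme were higher in B6. Of 25 genes, 17 were higher and none lower, with a median of 2.36, and 13 kept the call without any single tumour. Krt5 was at 193373, 68430, 207603 and 189188 in B6 and 30392, 53598, 13197, 46238 and 10531 in NSG. B6 tumour 416 was below the other B6 tumours and nearest to the highest NSG tumour, NSG_Baseline_304 (2.57 ± 0.55 SE, adjusted p = 0.0042). Its partner Krt14 was at 319080, 113495, 451718 and 309204 in B6 against 40664, 66401, 18940, 77395 and 22030 in NSG. B6 tumour 416 was again the lowest of its group and above every NSG tumour (2.78 ± 0.52 SE, adjusted p = 0.0022). Trp63, the transcription factor of basal cells, was at 12541, 6050, 10830 and 10337 in B6 and 1878, 4395, 916, 2228 and 803 in NSG. The hosts did not overlap (2.51 ± 0.47 SE, adjusted p = 0.0023). Ivl, an envelope protein of differentiating squamous cells, was at 1337, 2277, 1512 and 2234 in B6 and 131, 269, 106, 294 and 144 in NSG. B6 tumour 416 was the highest here (3.36 ± 0.33 SE, adjusted p = 0.00011). Late cornification genes varied within both hosts and were not called, such as Krt1 (-1.06, adjusted p = 0.58), Lor (0.92, adjusted p = 0.39) and Sprr3 (3.17, adjusted p = 0.16). Without B6 tumour 415 and tumour NSG_Baseline_305, the muscle-rich pair, 11 of the list were called.

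The simple-epithelial keratins Krt8 and Krt18 were lower in B6, and Krt19 (-1.83, adjusted p = 0.068) and Krt7 (0.21, adjusted p = 0.74) were not called. Krt8 was at 617, 6954, 3055 and 485 in B6 and 13510, 8587, 15275, 7938 and 22842 in NSG. B6 tumour 416 came closest to the NSG tumours without reaching them (-2.99 ± 0.74 SE, adjusted p = 0.0089). Krt18, its partner, was at 874, 4149, 2324 and 1371 in B6 and 8171, 6595, 9285, 5944 and 11438 in NSG. The groups did not overlap (-2.13 ± 0.40 SE, adjusted p = 0.0024). Upk3a, a uroplakin of the urothelial surface, was at 1.17, 51.2, 0 and 52.3 in B6 against 803, 157, 775, 321 and 394 in NSG. It was near 0 in B6 tumours 415 and 419 (-5.56 ± 1.21 SE, adjusted p = 0.0048). Of 18 luminal genes, 2 were higher in B6 (Gata3 and Grhl3) and 5 lower, against 0 higher and 10 lower as deposited and 2 higher and 9 lower with total-sum scaling. The share lower in the main fit is near that of all genes tested (26.1%). Grhl3 and Krt20 lost their calls without B6 tumour 419 and Upk1a without 415, 416 or 419. Without B6 tumour 416, 5 were higher and 4 lower, and without 426, 2 and 8. Upk2, another uroplakin of the bladder surface, was at 19.9, 30.8, 25.8 and 139 in B6 and 49.6, 26.0, 60.0, 23.7 and 41.0 in NSG. It overlapped and was not called (0.04 ± 0.56 SE, adjusted p = 0.96). Cdh1, E-cadherin, was at 10800, 17147, 14773 and 23380 in B6 and 18977, 12072, 18619, 10820 and 20900 in NSG. The hosts overlapped (0.02 ± 0.27 SE, adjusted p = 0.97). Of 12 mesenchymal transition genes, Snai2 (1.88) and Twist2 (1.15) were higher in B6, and Zeb1, Zeb2, Cdh2 and Fn1 lower, of which Zeb1 lost its call without B6 tumour 419 and Cdh2 without 7 of the 9 tumours.

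Most cell cycle and glycolysis genes were called higher in B6, with counts that depended on the scaling. Of 25 cell cycle genes, 18 were higher and 1 lower, with a median of 0.72. With the values as deposited, which shifted the median of all genes by -0.65, 4 were higher and 5 lower and the list's median was 0.08. Top2a was at 11170, 9603, 9567 and 9366 in B6 and 5701, 6798, 4697, 4948 and 5043 in NSG. It was higher in every B6 tumour (0.88 ± 0.13 SE, adjusted p = 0.00069). Mki67, the usual proliferation marker, was at 6484, 5009, 5658 and 5651 in B6 and 6708, 5527, 5266, 4028 and 4397 in NSG. It overlapped (0.15 ± 0.16 SE, adjusted p = 0.43), and with values as deposited its difference was -0.48. Of 19 hypoxia and glycolysis genes, 14 were higher and none lower, with a median of 0.95 with 8 higher and 2 lower as deposited and 6 higher and 2 lower with quantile scaling. Pdk1, which diverts pyruvate from mitochondria, was at 6532, 4767, 8493 and 6886 in B6 and 2935, 2733, 2021, 2699 and 2223 in NSG. The groups did not overlap (1.39 ± 0.18 SE, adjusted p = 0.00035). The hypoxia targets Vegfa (-0.38, adjusted p = 0.28) and Car9 (0.55, adjusted p = 0.27) were not called. Of 15 cholesterol and fatty acid genes, 8 were higher, led by Fdft1 (1.72) and Hmgcs1 (1.57), with a median of 0.60, against 3 higher, 4 lower and -0.04 as deposited.

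Ribosomal protein genes were higher in B6 in 16 of 20, with a median of 1.01. Rpl4 was at 84530, 80937, 86495 and 89812 in B6 and 36317, 39541, 33648, 42716 and 35387 in NSG. The B6 tumours were all above the NSG tumours (1.19 ± 0.12 SE, adjusted p = 0.00012). As deposited 6 were higher and the median was 0.38, and with quantile scaling 5 were higher, 1 lower and the median 0.22. Of 14 reference genes, 10 were higher and 2 lower, with a median of 0.56, against 2 higher, 4 lower and -0.08 as deposited. Gapdh differed by 0.95 and Polr2a by -0.90. Gene length moved with these differences. With tested genes split into 4 equal bins by RefSeq gene span, the median was 0.26 in the bin of the shortest genes, then 0.04 and -0.05, and -0.32 in that of the longest. The part of gene length in the list's difference was not tested.

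The remaining lists are given in brief, most of them with calls in both directions. Their counts stand beside 23.4% of all genes tested called higher in B6 and 26.1% called lower. Lymphatic endothelial genes were lower in B6 in 4 of 6 tested, among them Lyve1 (-1.95) and Prox1 (-1.04), but none kept the call in all 9 fits without a tumour, and Prox1 was at 0.07 with quantile scaling. Of pericyte and smooth muscle genes Mylk and Des were lower (2 of 13), Des losing its call in 7 of 9 fits without a tumour, and of 7 Schwann cell genes 3 were lower, among them Mbp (-0.51), and 1, Ngfr, which basal cells also carry, was higher (1.55). Mbp and Ngfr each lost the call in 6 of 9 fits without a tumour. Among adhesion genes the desmosome members Dsp (1.33) and Jup (1.04) were higher and the tight junction gene Cldn7 lower (-1.23), 5 and 2 of 15 in all, against 0 higher and 7 lower as deposited and 2 higher and 5 lower with total-sum scaling, and Dsp lost its call in 6 of 9 fits without a tumour. The antioxidant list had 5 higher and 2 lower of 12, with Gclc at -1.90 and Gpx2 at 2.33, the latter losing its call in 7 of 9 fits without a tumour, against 1 higher and 3 lower as deposited. The p53 target list had 3 and 1 of 13, with Cdkn1a not called (1.0, adjusted p = 0.05) and the death receptor Fas at 1.27, called in 3 of 9 fits without a tumour, against 2 higher and 5 lower as deposited. The unfolded protein list had 3 and 3 of 14, with Asns at 1.59 and Xbp1 at -0.97, against 1 higher and 6 lower as deposited. The immediate early list had 1 and 2 of 14 (0 higher and 7 lower as deposited), the mast cell and eosinophil list 0 and 3 of 11, the Fc gamma receptor list 1 and 0 of 5 (Fcgr4, which lost its call in 8 of 9 fits without a tumour), and the replication-dependent histone list 1 and 1 of 5.

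Sex-linked genes differed between the hosts and within the B6 group. Xist, the RNA that silences an X chromosome in females, was at 5118, 4939, 4586 and 21864 in B6 and 46195, 19330, 25170, 26140 and 18265 in NSG. B6 tumour 426 lay in the NSG range and the other B6 tumours below it (-1.84 ± 0.47 SE, adjusted p = 0.01). Tsix, its antisense partner, was at 33.6, 13.6, 95.0 and 75.5 in B6 against 4419, 993, 2078, 1395 and 1356 in NSG. It was low in all B6 tumours (-5.33 ± 0.59 SE, adjusted p = 0.0002). The library kit keeps strand, but whether counting used it is not given in the sources used here, so reads of this pair cannot be told apart. The Y-linked genes Ddx3y, Eif2s3y and Uty were listed at 0 in all 9 tumours. Of 9 tested genes known to differ between NOD and C57BL/6 mice, 3 were higher in B6 (Ifi202b, Ctla4 and H2-Ab1) and 2 lower (Nnt and Naip5). Whether these calls go in the direction known for the strains was not tested. Ifi202b, an interferon-inducible DNA sensor, was at 1104, 447, 1974 and 3568 in B6 and 553, 546, 539.8, 714 and 352 in NSG. The groups overlapped (1.37 ± 0.51 SE, adjusted p = 0.047), and the call was lost in 8 of the 9 fits without a tumour, all but that without B6 tumour 416. Hc, complement C5, for which NOD mice carry a null allele, was at 17.1, 19.7, 25.1 and 0 in B6 and 24.7, 45.7, 12.9, 51.6 and 20.1 in NSG. It overlapped and was not called (-1.51, adjusted p = 0.2).

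The 12 widest differences in each direction were taken by a fixed rule of size that passes over predicted genes, pseudogenes and receptor variable segments. Those higher in B6 were genes of T and NK cells (Gzma, Cd3g, Gzmb, Nkg7, Tcrg-C2, Cd2, Sh2d2a and Ctla4), Igkc, Cxcl9, Ido1 and Apol7c. Sh2d2a, a T cell adaptor, was at 150.3, 142, 215 and 80.7 in B6 and 0, 1.23, 1.56, 1.47 and 0 in NSG. Apol7c was at 304.4, 205, 156 and 72.1 and Tcrg-C2 at 77.1, 108, 115 and 115, and both were listed at 0 in all NSG tumours. The genes higher in NSG were Onecut2, Tff2, Mup9, Hnf4a, Muc5b, Ugt2b34, Itgad, Gc, Mup17, Hist1h2al, Il11ra2 and Mrgpra2a. BC018473, passed over by its symbol, differed more widely than these (-9.18 ± 0.28 SE). It was listed at 0 in all 4 B6 tumours and was at 419 to 815 in NSG. Onecut2, a transcription factor of liver and gut, was at 0, 93.6, 76.2 and 0 in B6 against 4473, 1328, 4362, 2773 and 9664 in NSG. It was at 0 in B6 tumours 415 and 426 (-8.65 ± 1.46 SE, adjusted p = 0.0014). Tff2, a trefoil peptide of the stomach, was at 0, 93.1, 0 and 1.19 in B6 and 374, 103, 2393, 2077 and 5120 in NSG. B6 tumour 416 approached the lowest NSG tumour (-8.04 ± 1.54 SE, adjusted p = 0.0025). Hnf4a, a nuclear receptor of liver and gut, differed by -7.25 ± 0.90 SE, adjusted p = 0.00033. Muc5b, a secreted mucin, ranged from 0 to 11.9 in B6 and 54.9 to 1764 in NSG, and Itgad, an integrin chain of macrophages, from 0 to 3.22 and 129.6 to 205. Mup9, Mup17, Hist1h2al and Mrgpra2a were listed at 0 in all 4 B6 tumours and at 125 to 359.9, 77.5 to 109, 39.2 to 135 and 59.8 to 111 in NSG. Mup genes and Il11ra2 belong to clusters of near-identical copies, so their counts are uncertain.

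The same host contrast was read in tumours given vehicle, 6 in B6 and 5 in NSG mice, which share the 2 tables with the baseline tumours but no library. Their 11 libraries were rescaled together in the same way. There 3675 of 16408 tested genes were called (22.4%), 1763 higher in B6 (10.7%) and 1912 lower (11.7%). The count fell to 2283 without tumour NSG_Vehicle_323 and to 2241 without NSG_Vehicle_326. B6 vehicle tumours 408 and 414 were close to each other, with an SD of their log2 difference of 0.30. For the other pairs of B6 vehicle tumours it was 0.96 to 1.91. All counts here take 408 and 414 as separate tumours, and the lower count with this pair averaged is given further below. T cell genes were higher in B6 in 17 of 24 (median 3.21), cytotoxic genes in 11 of 15 (3.30), interferon gamma targets in 23 of 26 (2.44), class I genes in 15 of 25 (0.99) and class II genes in 10 of 11 (3.23). Neutrophil genes were lower in 15 of 19 (-3.19), skeletal muscle genes in 11 of 13 (-6.11), and basal genes were higher in 11 of 25 (2.34). Gzmb ranged from 119 to 272 in B6 and 0 to 0.733 in NSG vehicle tumours (log2 7.28, adjusted p = 2.8e-07). Cxcr2 ranged from 43.5 to 635 and 1521 to 6242, and Krt5 from 40334 to 201524 and 1059 to 33586, with differences of -3.67 and 3.91. The ranges of these 3 genes did not overlap in either setting. Of 7983 genes called at baseline and tested in both, 6921 (86.7%) had the same sign in vehicle tumours, against 74.9% of all 16217 tested in both. Called in both with the same sign were 2614, 32.7% of the baseline calls and 71.9% of the vehicle calls, and 18 were called in opposite directions.

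Some lists with many calls at baseline had few in vehicle tumours. Of ribosomal protein genes, 0 of 20 were higher and 2 lower in B6 vehicle tumours, with a median of -0.26 against 1.01 at baseline. Over gene length the vehicle medians ran from -0.09 in the bin of the shortest genes to 0.08 in that of the longest. Of hypoxia genes 3 were higher and 1 lower, and of adipocyte genes none of 10 was called in either direction. A test of the difference between the host effects at baseline and in vehicle tumours, over 20 untreated libraries, called 1 of 17807 genes (0.00562%), the predicted gene Gm10108, and 2900 at an unadjusted p under 0.05. No list member was called, so no host difference named here was shown to be larger at one stage than the other. That count was 732 without B6 vehicle tumour 424, 32 without tumour NSG_Vehicle_308, 4 without B6 baseline tumour 426, 3 without tumour NSG_Baseline_304 or NSG_Baseline_305 or tumour NSG_Vehicle_311, 2 without B6 vehicle tumour 410, and 1 otherwise. For the members described above, the unadjusted p of this test was 0.0025 for Irf1, 0.011 for Rpl4, 0.1 for Gzmb, 0.68 for Cxcr2 and 0.27 for Krt5, with adjusted p of 0.13 or more. Mup17, among the widest differences at baseline, ranged from 0 to 24.3 in B6 and from 0 to 18.4 in NSG vehicle tumours. Its unadjusted p in the same test was 5.83e-05 and its adjusted p 0.0891.

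**Figure D5:**
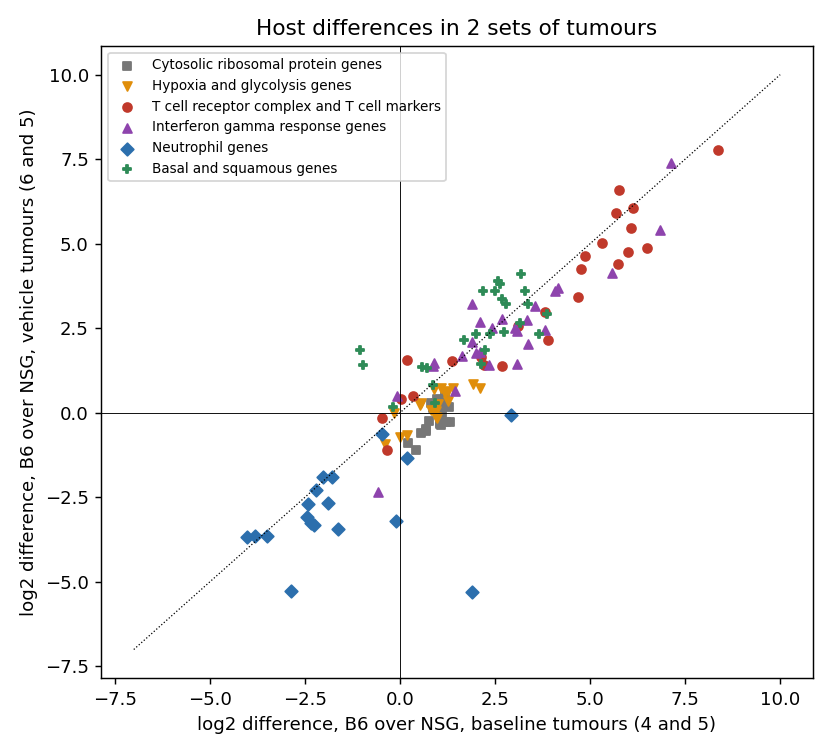
Log2 difference, B6 over NSG, at baseline (horizontal) and in vehicle tumours (vertical) for the tested members of 6 lists, 1 point a gene. T cell and interferon gamma members lie mostly in the upper right, neutrophil members mostly in the lower left, and ribosomal members lie right of 0 and around 0 vertically.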

How the data were processed

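RNA was measured in 9 baseline tumours and, for comparison, 11 vehicle tumours. The deposited values are a signal, read counts normalised with DESeq2 by the authors in 1 table for each host, per the submitters' processing notes, which also name STAR and mm10 without versions or settings. Whole reads could not be recovered from them, so no count test was run. The tables were joined by Ensembl ID (47606 joined, 47187 with a symbol, 0 columns not mapped) and the libraries of a comparison rescaled together by the median ratio to each gene's geometric mean. Depth was read from the size of 1 read in low values and is approximate.

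Genes with at least 10 in at least 4 of 9 libraries (5 of 11 for vehicle) were tested with limma 3.58.1 in R 4.3.3, trend and robust, on log2(value + 1), with Benjamini-Hochberg adjustment at 0.05. The test was also run on simulated data with independent noise and a small set of genes raised in B6. These data lacked the offset between the host tables and the many differences seen here. They therefore do not check the scaling. The 46 gene lists (750 genes) and the tumours were chosen with earlier results of these data known. Named genes were the 12 highest and 12 lowest called differences whose groups did not overlap and whose higher group averaged 50 or more, passing over predicted genes, plus 2 to 4 members a list by smallest p and a fixed set of markers. Other members appear for their role in a pathway, chosen after values were seen. List medians include genes listed at 0 in 1 host at their fitted value, which is no bound. Genes under 10 throughout 1 host passed the filter only through the other host, where they are high. List counts and medians that hold such genes follow in part from the filter. Scaling, filter, pseudocount, fit and single tumours were varied. Promoters and gene positions came from RefSeq GRCm38.p6. Python 3.11.15, numpy 2.4.6, pandas 2.3.3 and matplotlib 3.10.9 were used. Treated tumours were not used here, and a few genes are not reported here.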

Additional observations from a re-analysis of the deposited data

Results flagged for a closer look

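Within each host group, 204 values (named genes and summed lists) were searched for a tumour standing apart from its group by Dixon's test at 95%, which chance alone meets in about 1 group in 20, and 13 did. At that rate this count is not clearly above what chance alone gives, so the tumours are listed as a description. B6 tumour 426 was the lowest of its group for Cd4 (42.3), for Hc (listed at 0) and for the summed chemokine genes (29224), and the highest for Xist (21864) and so for the summed sex-linked genes (21940). B6 tumour 415 was the lowest for B2m (63906) and the highest for the summed skeletal muscle genes (27515). B6 tumour 416 was the lowest for Krt5 (68430) and the highest for the summed interferons, receptors and kinases (20883). In the NSG group, NSG_Baseline_305 was the highest for Ciita (178), for the summed Toll-like receptor genes (11794) and for the summed Schwann cell genes (3447), and NSG_Baseline_316 was the highest for Cd8a (16.8).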

How the results depend on the processing

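Genes called higher and lower in B6 numbered 873 and 9755 with the values as deposited. The factors of the common scale were 0.776 to 0.808 in the B6 baseline libraries and 1.221 to 1.259 in the NSG baseline libraries. Values as deposited kept this offset between the host tables, and the median of all genes moved by -0.65. Genes called higher and lower numbered 1806 and 7120 with total-sum scaling and 1964 and 6757 with upper-quartile scaling. The cause of the split under these scalings was not tested. Quantile scaling gave 4019 and 3617. As deposited, Cd68 (-0.54), Mki67 (-0.48), Xrcc5 (-0.16), Irf9 (-0.11), Esrp1 (-0.071) and Ier2 (-0.038) turned to the NSG side, and with quantile scaling Prox1 (0.073) and Hist1h2bg (0.021) turned to the B6 side. Of 212 named genes tested, 170 kept direction and call as deposited, 185 to 192 under the other scalings and with all 4 untreated groups in 1 fit, 212 under both other pseudocounts, and 189 to 206 of 211 or 212 without any 1 tumour. Many of these genes were named for a wide difference or a small p in the main fit. The counts kept are therefore a description of these genes and do not stand for all genes tested. Without B6 tumour 415 and tumour NSG_Baseline_305, an alternative chosen after seeing the data, 5890 genes were called for the host difference at baseline. Leaving out single tumours gave 6627 to 8971 calls for it, 2241 to 4174 in vehicle tumours (1005 to 1904 higher and 1233 to 2270 lower) and 1 to 732 for the difference between the host effects. With B6 vehicle tumours 408 and 414, the closest pair, averaged as 1, also chosen after seeing the data, 2829 genes were called for the host difference in vehicle tumours. In fits without a tumour the filter followed the smaller group. No paired analysis was possible because the B6 and NSG tumours come from different mice and their numbers, being mouse numbers, are not shared.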

Other observations

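The genes in this paragraph were picked after their values were seen and are given as a description. Agr2, a protein-folding factor of mucus cells, was at 4.68, 260.5, 8.21 and 223 in B6 and 1542, 420.0, 3281, 1915 and 2143 in NSG. Cldn2, a tight junction protein of leaky epithelia, was at 16.2, 781, 741 and 7.08 in B6 and 4224, 3495, 5665, 4607 and 10162 in NSG. B6 tumour 416 was the highest of its group for both, and no B6 tumour reached the NSG range. The gastric mucin Muc5ac was listed at 0 in all B6 tumours and at 8.15 to 80.0 in NSG, and the trefoil peptide Tff1 was at 78.0, 179, 28.2 and 104 in B6 and 567, 112, 1640, 1350 and 2101 in NSG, where tumour NSG_Baseline_304 lay within the B6 range. In vehicle tumours the NSG ranges were 1576 to 25395 for Agr2 and 3161 to 8456 for Cldn2. B6 vehicle tumour 402 was the highest of its group for both, at 1185 and 5593, the latter within the NSG range.

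The gasdermin Gsdmc, a pore-forming protein of keratinocytes, was uneven within the B6 group, at 715, 51.5, 1634 and 4231 in B6 and 10.7, 8.45, 13.7, 209 and 59.4 in NSG, and its neighbour Gsdmc2, a close copy whose reads may be shared, was at 143, 6.86, 71.9 and 2982 in B6 and 0.685, 0, 0, 5.10 and 10.1 in NSG. Both were highest in B6 tumour 426. The lipoxygenase gene Alox15 was also highest there, at 161, 310.1, 64.2 and 5254 in B6 and 16.3, 38.3, 8.45, 12.3 and 2.63 in NSG. Apol10b, of the apolipoprotein L family, was at 725, 341, 1768 and 284 in B6 and 21.1, 17.7, 8.99, 11.8 and 9.85 in NSG, with no overlap. The lymphoid chemokines Xcl1 and Ccl1 were at 44.5 to 169.7 and 35.5 to 63.6 in B6, and in NSG Xcl1 was listed at 0 throughout and Ccl1 reached 1.69 in tumour NSG_Baseline_316 and was at 0 in the rest.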
